A study of Homo sapiens with 7 samples.

Results

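The steroid hormone receptor genes ESR1, ESR2, PGR, NR3C1 and NR3C2 were examined in T47D/A1-2 cells for steady-state transcript level and for the positions at which transcription initiated. The 5 genes were chosen by name, from 26175 genes in the RNA-seq table. No measured value entered the rule, though earlier results of these data were known. A gene TSS (transcription start site of the gene's own strand) was taken for them when it was called inside the locus that the table gives for the gene, widened by 1000 nts on each side. This gave 11 of the 10391 gene TSSs called in the whole dataset, of which 6 lay nearest to an annotated start of a receptor gene among the genes of the table. Antisense calls sharing the identifier of those 6 numbered 3 of 5519 upstream antisense TSSs (uaTSSs), which initiate divergently, and 3 of 2956 downstream antisense TSSs (daTSSs), which initiate within the gene and point back toward its TSS.

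All samples are T47D/A1-2 cells, which were made from the luminal breast cancer line T-47D. Every sample therefore carries 2 added genes, a rat glucocorticoid receptor at high level and luciferase under an MMTV promoter. The 7 samples share 1 growth condition, with cells grown in DMEM and 10% FBS and then kept for 24 hours or longer in medium whose 5% serum had been stripped with charcoal and dextran. They comprise 2 Start-seq, 3 RNA-seq, 1 MNase-seq and 1 FAIRE-seq samples, and no hormone-treated group was compared. TSS positions came from Start-seq replicate 1 and transcript levels from the 3 RNA-seq replicates, which had been merged into 1 FPKM value per gene, an abundance scaled for transcript length and for sequencing depth. No value below therefore has an error between replicates, the depth behind each value is unknown, no difference was tested, and intervals cover only the counting of genes or TSSs.

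Steroid hormone receptors are nuclear receptors, transcription factors whose ligand is a lipophilic hormone. Unliganded receptors are held by HSP90-based chaperone complexes, and hormone binding releases them to bind response elements on DNA and to recruit coactivators. In breast epithelium, the estrogen receptor encoded by ESR1 drives proliferation and transcription of PGR, the progesterone receptor gene, and both proteins are used clinically to classify luminal breast cancer. ESR2 encodes the second estrogen receptor, NR3C1 the glucocorticoid receptor and NR3C2 the mineralocorticoid receptor, which is best known from salt-transporting epithelia.

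The sequences at the called gene TSSs are printed because base composition and sequence patterns around the start sites are compared below. Each reads 5′ to 3′ on the strand of the gene in hg19, from 100 nts upstream of the TSS to 19 nts downstream of it. The exception is the second NR3C1 TSS, where 30 nts are shown, all of them in an annotated exon. The last line is the start of the main annotated PGR transcript, where no TSS was called. Capitals mark the dinucleotide at −1 and +1, whose second base is the TSS, and matches to the GC box GGGCGG.
ESR1 TSS 1, chr6:152011094-152011213, plus strand: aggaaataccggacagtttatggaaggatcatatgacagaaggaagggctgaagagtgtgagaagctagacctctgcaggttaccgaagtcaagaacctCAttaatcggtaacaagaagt
ESR1 TSS 2, chr6:152128721-152128840, plus strand: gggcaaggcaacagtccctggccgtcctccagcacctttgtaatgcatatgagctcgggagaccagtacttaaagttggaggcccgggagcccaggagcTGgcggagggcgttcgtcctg
ESR2 TSS, chr14:64805168-64805287, minus strand: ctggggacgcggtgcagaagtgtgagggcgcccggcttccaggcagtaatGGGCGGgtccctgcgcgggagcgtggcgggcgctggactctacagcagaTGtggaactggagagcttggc
NR3C1 TSS 1, chr5:142784873-142784992, minus strand: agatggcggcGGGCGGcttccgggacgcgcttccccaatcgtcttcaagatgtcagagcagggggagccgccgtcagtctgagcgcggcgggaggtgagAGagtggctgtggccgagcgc
NR3C1 TSS 2, chr5:142783062-142783091, minus strand: tctgtgggtggaagGAgacgccgcagccgg
NR3C2 TSS, chr4:149363676-149363795, minus strand: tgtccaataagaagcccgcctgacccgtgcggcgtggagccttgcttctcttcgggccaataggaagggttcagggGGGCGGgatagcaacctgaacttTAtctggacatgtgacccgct
PGR annotated start, chr11:101000525-101000644, minus strand: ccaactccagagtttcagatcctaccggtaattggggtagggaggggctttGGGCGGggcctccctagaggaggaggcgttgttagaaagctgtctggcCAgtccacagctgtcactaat

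PGR and ESR1 were the most abundant receptor transcripts, and ESR2 was the lowest. PGR had an FPKM of 68.5 and ranked 1530 among all genes, with a lower FPKM for 94.2% of them (exact Clopper-Pearson 95% interval 93.9% to 94.4%). ESR1 had an FPKM of 44.1, above 90.4% of genes (90.0% to 90.8%). Both exceeded 16.6, the median of the 9810 protein-coding genes with a called gene TSS, by 4.12-fold for PGR and 2.65-fold for ESR1.

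The corticosteroid receptor genes were lower. NR3C1 had an FPKM of 5.43, above 65.0% of genes and 3.06-fold under the same median. NR3C2 had an FPKM of 1.80, above 56.4% of genes and 9.23-fold under the median. The level of NR3C1 carries a limit specific to these cells, because reads of the overexpressed rat receptor could align to the human gene, and the endogenous and transgenic transcripts cannot be told apart in it.

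ESR2 was listed at an FPKM of 0.0903, above 42.6% of genes, of which 7888 were listed at 0. Its level was 184-fold under the median of genes with a called gene TSS and 488-fold under that of ESR1, its paralog. In order from the highest, the ratios between neighboring receptor genes were 1.56 for PGR over ESR1, 8.11 for ESR1 over NR3C1, 3.02 for NR3C1 over NR3C2 and 19.9 for NR3C2 over ESR2. With 1 merged value per gene, it cannot be said which of these neighbors differ beyond replicate spread. An FPKM of at least 1 was reached by 4 of the 5 receptor genes, compared with 46.9% of all genes and 60.1% of protein-coding genes.

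**Figure D1:**
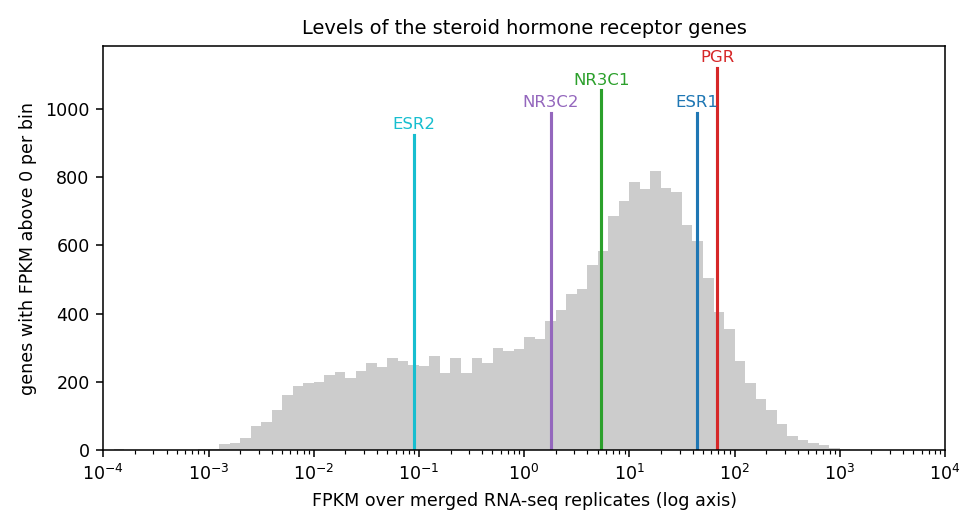
Histogram of FPKM over the merged RNA-seq replicates (log axis, genes above 0 only), with the 5 receptor genes as vertical lines whose heights carry no value. PGR at 68.5 and ESR1 at 44.1 lie on the right flank of the main peak, NR3C1 at 5.43 and NR3C2 at 1.80 on its left flank, and ESR2 at 0.0903 in the low tail.

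The labelled cell type was checked with marker genes. All 7 luminal epithelial markers (KRT8, KRT18, KRT19, EPCAM, CDH1, GATA3 and FOXA1) had an FPKM between 113 and 1142. Among basal or mesenchymal markers, KRT5 and KRT14 were listed at 0 and VIM at 0.864. PTPRC, PECAM1 and COL1A2, markers of immune, endothelial and fibroblast cells, were at 0.0208, 0.00291 and 0.0334 FPKM, while the fibroblast collagen gene COL1A1 was at 8.82. The part of COL1A1-expressing cells in any receptor level was not tested.

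Transcript level and called initiation did not go together for all of the receptor genes. At least 1 gene TSS was called for ESR1, ESR2, NR3C1 and NR3C2, that is 4 of 5, where 51.7% of protein-coding genes had a called gene TSS. PGR, the most abundant of the 5, had none. In contrast, ESR2, the lowest, was given a called gene TSS. That call lay 357 nts from an ESR2 start and 130 nts from the start of a noncoding gene. Whether it belongs to ESR2 is therefore uncertain. More than 1 gene TSS was called for ESR1 and NR3C1, 2 of the 4 receptor genes with a call, compared with 4.36% of protein-coding genes with a call. These 2 genes have 12 and 16 annotated starts, and the 4.36% was not matched for the number of starts.

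The share of genes with a called TSS at each of these levels was added after the receptor values were seen. Of the 1504 protein-coding genes with an FPKM at least that of PGR, 135 had no called gene TSS, which is 8.98%. Within 1.5-fold of the PGR level, the share without a call was 9.99% of 1511 genes. Of the 5653 protein-coding genes with an FPKM no higher than that of ESR2, 161 had a called gene TSS, which is 2.85% (2.43% to 3.32%). Within 1.5-fold of the ESR2 level, 11.7% of 633 genes had a call. PGR was thus in the smaller group at its level, and so was ESR2 if the call is taken as its own, which its position leaves uncertain. For the remaining genes, the share with a call within 1.5-fold was 89.6% around ESR1, 75.6% around NR3C1 and 55.5% around NR3C2.

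**Figure D2:**
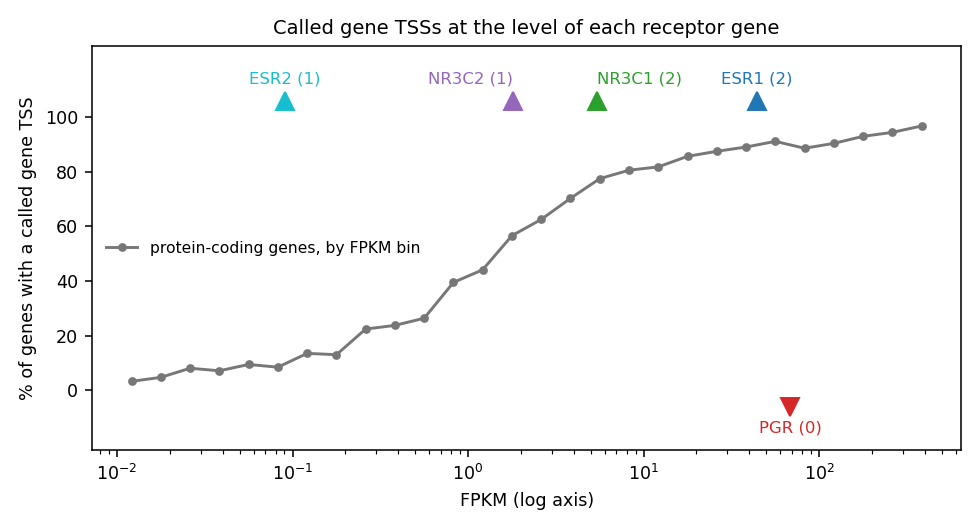
Percent of protein-coding genes with a called gene TSS (vertical axis) by FPKM bin (log axis), with the receptor genes as triangles placed outside the 0% to 100% range, pointing up above it where a gene TSS was called and pointing down below it where none was, and the number of calls in parentheses. PGR lies below an FPKM bin in which 88.6% of genes had a call, and ESR2 lies above a bin in which 8.41% had.

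ESR1 (ENSG00000091831, plus strand of chromosome 6) initiated at 2 called positions 117627 nts apart. The upstream TSS, at chr6:152011194, lay 437 nts upstream of the nearest annotated start, in an intron of 1 longer annotated transcript, and was found only because the locus was widened. The downstream TSS, at chr6:152128821, lay 4 nts downstream of the start of the transcript that the annotation selects as representative (MANE). Antisense initiation separated these positions. Only the upstream TSS had antisense calls, a uaTSS at 380 nts upstream and a daTSS at 1236 nts downstream. Among all antisense calls, 80.6% of uaTSSs and 92.2% of daTSSs lay nearer to their gene TSS, so that both ESR1 distances were long. No antisense TSS was called at the downstream ESR1 TSS.

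Base composition also separated these ESR1 TSSs. Over the 100 nts around the upstream TSS, GC content was 49%, and only 2.74% of gene TSSs had a lower value. At the downstream TSS it was 68%, equal to the median of all gene TSSs (quartiles 61% and 74%). The nearest CpG island to the upstream TSS was 4630 nts away. At the downstream TSS, an island of 949 nts began 2 nts downstream of the called position, so the position itself was not counted as inside it. Of the 12 annotated ESR1 starts, 6 had a called gene TSS within 1000 nts and 1 lay in an island.

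ESR2 (ENSG00000140009, minus strand of chromosome 14) had a single call, at chr14:64805187. This position was 357 nts upstream of the nearest annotated ESR2 start and 44098 nts upstream of the MANE start at 64761089, where no TSS was called within 1000 nts. A lncRNA without a symbol, ENSG00000214770, is annotated on the same strand with a start at 64805317, and the called TSS lay 130 nts downstream of that start. The call can therefore be given to ESR2 only among the genes of the RNA-seq table, and initiation of ESR2 and of the lncRNA cannot be told apart. Of the 10 annotated ESR2 starts, 2 lay within 1000 nts of the call.

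The ESR2 call had both a uaTSS, 718 nts upstream, and a daTSS, 513 nts downstream. The uaTSS distance exceeded 96.2% of all uaTSS distances, whereas the daTSS distance was near the middle, with 50.6% shorter. The CpG island over the gene TSS measured 676 nts, and both antisense TSSs lay outside it, the uaTSS by 120 nts and the daTSS by 436 nts. The daTSS fell in an annotated exon of ESR2 transcripts. SYNE2, which encodes a nuclear envelope protein and had an FPKM of 8.68, overlaps the 3′ part of ESR2 on the other strand. The RNA-seq libraries kept strand, but the strand setting used in quantification is not given in the sources used here, and the part of SYNE2 reads in the ESR2 value was not tested.

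The table gives ESR2 a locus of 687404 nts that it also gives to 9 other genes. The other 5 gene TSSs found by the locus rule all came from this interval widened by 1000 nts, that of HSPA2 from the widening itself. They were nearest to annotated starts of SYNE2, MTHFD1, ZBTB25, ZBTB1 and HSPA2. These genes were not counted as receptor genes.

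NR3C1 (ENSG00000113580, minus strand of chromosome 5) initiated at 2 called positions 1816 nts apart within the same CpG island of 3000 nts. The upstream TSS, at chr5:142784892, was 4 nts upstream of an annotated start. The downstream TSS, at chr5:142783076, was 175 nts downstream of the MANE start. The upstream TSS had a daTSS 327 nts downstream, in an intron and inside the island, and only 26.2% of daTSS distances were shorter. No uaTSS was called at either position, and the downstream TSS had no antisense call. GC content was 70% at the upstream and 74% at the downstream TSS. NR3C1 has the most annotated starts of the 5 genes, with 16, of which 9 lay in an island and 9 had a called TSS within 1000 nts.

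NR3C2 (ENSG00000151623, minus strand of chromosome 4) had a single gene TSS, at chr4:149363695, 23 nts upstream of the nearest annotated start and 129 nts upstream of the MANE start. It lay outside the locus of the table, so that without widening no gene TSS was found for NR3C2. Its uaTSS lay 201 nts upstream, and 50.2% of uaTSS distances were shorter. No daTSS was called. The CpG island over both TSSs measured 3844 nts, the longest at a receptor gene TSS. Within it, GC content in the 100 nts around the gene TSS was 57%, and only 12.3% of gene TSSs had a lower value. A lncRNA on the other strand, ENSG00000287292, has an annotated start at 149366855, farther upstream of NR3C2 than the called uaTSS.

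PGR (ENSG00000082175, minus strand of chromosome 11) had no gene TSS called in its locus of 129647 nts. Antisense TSSs were sought only around called gene TSSs, so none could be called for PGR. None of its 6 annotated starts had a called gene TSS within 1000 nts. The nearest called gene TSS on the minus strand lay 1322827 nts from a PGR start, and on either strand 364182 nts. No PGR start lay in a CpG island. GC content over 100 nts ranged from 42% to 65% around the 6 PGR starts. It was highest at 100999801, a start of 4 annotated transcripts, where 36.8% of called gene TSSs had a lower value. Around the MANE start at 101000544 it was 56%, and 10.4% of called gene TSSs had a lower value. In the 1000 nts upstream of this start GC content averaged 38.5%, and in the 1000 nts downstream 60.1%, compared with 55.9% and 59.2% for all gene TSSs. GC content was also below the mean of all gene TSSs in 9 of the 10 steps of 50 nts that follow the MANE start.

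The antisense gene PGR-AS1 is annotated on the plus strand from 100999808, between PGR starts, and overlaps the first part of PGR. It had an FPKM of 0.464, listed under the symbol LOC101054525. As a noncoding gene it could not receive a gene TSS of its own, because TSSs were sought around mRNA starts only. PGR transcript was abundant while no gene TSS was called for it. Calls needed a minimum number of reads at a single position within a window around the RefSeq start of an mRNA, and the reads below that minimum were not analysed here.

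**Figure D3:**
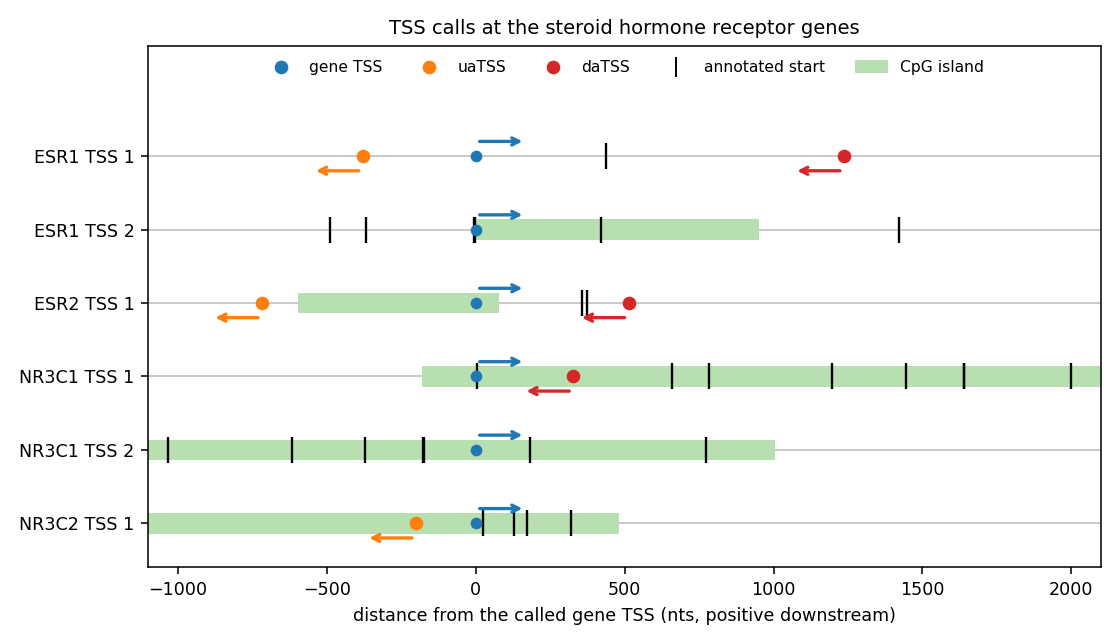
Map of the 6 called gene TSSs of receptor genes, each at 0 on an axis of distance in nts (positive downstream), with arrows for the direction of transcription, black ticks for annotated starts of the same gene and green bars for CpG islands, clipped at the edges. Antisense calls were made at 4 of the 6 TSSs, at distances from 201 to 718 nts upstream and from 327 to 1236 nts downstream. PGR had no call and is not drawn.

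Across the 6 gene TSSs, a uaTSS was called at 3 (exact 95% interval 11.8% to 88.2%) and a daTSS at 3. Of all gene TSSs, 53.1% had a uaTSS and 28.4% had a daTSS. Both were called at 2 receptor TSSs, the upstream ESR1 TSS and the ESR2 TSS, compared with 17.5% of all gene TSSs. Neither was called at 2, the downstream TSSs of ESR1 and NR3C1, compared with 35.9%. The ESR2 TSS is counted among the 6, although its assignment to ESR2 is uncertain. With 6 TSSs, the interval for each share spans most values, and differences from all gene TSSs were not detectable. The receptor uaTSSs were at 380, 718 and 201 nts, against a median of 200 nts over all uaTSSs. The daTSSs were at 1236, 513 and 327 nts, against a median of 507 nts.

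A CpG island covered 4 of the 6 receptor TSSs, compared with 82.7% of all gene TSSs. The 2 outside an island were both of ESR1, and the downstream ESR1 TSS lay only 2 nts from one. The same 4 lay in an island under stricter criteria, compared with 70.9% of all gene TSSs. GC content over 100 nts ranged from 49% to 74% at the receptor TSSs. The profiles differed in shape as well as height. GC content rose downstream of the second ESR1 TSS, from a mean of 49.3% over the 1000 nts upstream to 69.5% over the 1000 nts downstream. It fell at the ESR2 TSS from 61.5% to 50.2%.

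**Figure D4:**
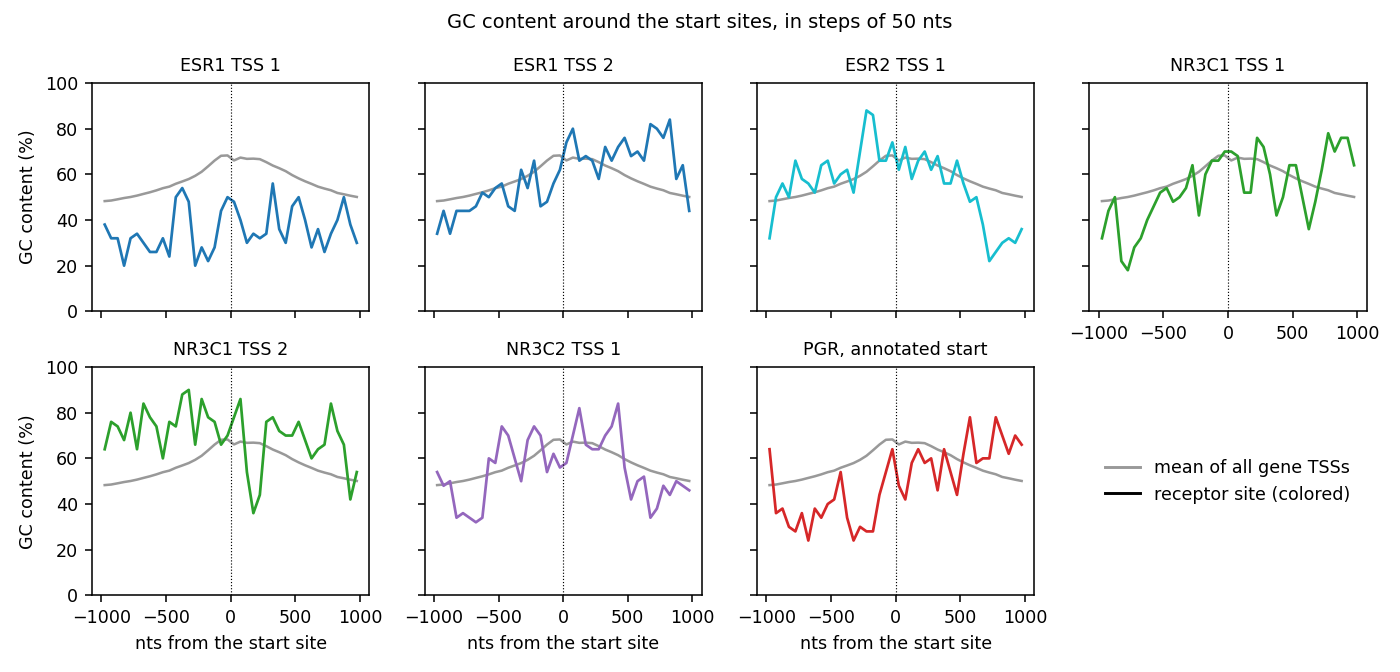
GC content in steps of 50 nts within 1000 nts of each receptor start site (colored) and its mean over all gene TSSs (gray), against distance in nts. The upstream ESR1 TSS lies below the gray line through most of the window, with means of 33.5% upstream and 37.9% downstream against 55.9% and 59.2% for all gene TSSs, and the PGR annotated start lies below it through most of the window up to 500 nts downstream.

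The antisense start sites of the receptor genes are shown next because their dinucleotides at −1 and +1, in capitals, divided by class. Each sequence spans 30 nts and reads 5′ to 3′ on the antisense strand in hg19.
ESR1 uaTSS, chr6:152010800-152010829, minus strand: tccctcttgctactGTatttctctctgtcc
ESR1 daTSS, chr6:152012416-152012445, minus strand: cattatgtatgtgcCAttgtgaggcaaaaa
ESR2 uaTSS, chr14:64805890-64805919, plus strand: aggccctaatggtcCCtctgtatggaagcg
ESR2 daTSS, chr14:64804659-64804688, plus strand: tccagcagagcaagCAcattcatcggactc
NR3C1 daTSS, chr5:142784550-142784579, plus strand: aggagcttccccctCAgtccaaggggaagg
NR3C2 uaTSS, chr4:149363881-149363910, plus strand: cgcagccgcggcggGAgcttggggtgccgg

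All 3 daTSSs had CA at these positions, a pyrimidine followed by a purine as in Initiator elements, which place RNA polymerase II at many start sites. None of the 3 uaTSSs had a pyrimidine followed by a purine. Over the whole dataset the shares were close, at 66.9% of daTSSs and 64.7% of uaTSSs. Among the 6 gene TSSs, 4 had a pyrimidine followed by a purine, compared with 66.1% of all gene TSSs, and both NR3C1 TSSs lacked it.

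Sequence patterns were searched by exact letters on both strands, from 100 nts upstream to 20 nts downstream of the TSS. A GC box, GGGCGG, which zinc finger factors such as SP1 bind, was found at 3 of 6 receptor TSSs and at 51.9% of all gene TSSs. Its first base lay 50 nts upstream of the ESR2 TSS, 90 nts upstream of the upstream NR3C1 TSS and 24 nts upstream of the NR3C2 TSS. A CCAAT box, CCAAT, was found at 2 of 6, the upstream NR3C1 TSS and the NR3C2 TSS, compared with 20.1% of all gene TSSs. At the annotated MANE start of PGR, a GC box began 49 nts upstream and a CCAAT box 70 nts upstream.

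Half-sites of steroid response elements were found at 1 of the 6 receptor TSSs. The estrogen response half-site, GGTCA, was found only at NR3C2, beginning 80 nts upstream of its TSS and again at position +12. This half-site was held by 14.5% of all gene TSSs. Around the nearest annotated starts in place of the called TSSs, it was found at 2 of 6, at NR3C2 and at the ESR1 start at 152011631. The glucocorticoid response half-site, TGTTCT, was found at 0 of 6 and at 2.94% of all gene TSSs. The letters TATAA (3.99% of all gene TSSs), GCCNNNGGC, bound by AP-2 factors (16.3%), and TGTTTAC, bound by FOXA factors (0.789%), were also found at 0 of 6. Neither ESR1 TSS held any of these 7 patterns in this window. None of the matches at the receptor TSSs overlapped another, and a match describes the sequence only.

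Genes whose products act with the receptors were described next, by lists of chaperones, coactivators, corepressors and partner transcription factors. The median FPKM over all genes was 0.528. The 15 chaperones all had an FPKM of at least 1, with a median of 123, and 14 had a called gene TSS, compared with 60.1% and 51.7% of protein-coding genes for these counts. HSP90AA1 at 549 and HSP90AB1 at 507, the cytosolic HSP90 proteins that hold unliganded receptors, exceeded every receptor gene. HSPA8 was highest at 661 and BAG1 lowest at 18.6. The immunophilins FKBP4 and FKBP5, which bind receptor complexes through HSP90, had FPKMs of 208 and 70.6. PTGES3, which encodes the cochaperone p23, resembled PGR in having a high level of 267 FPKM and no called gene TSS.

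All 13 coactivators had an FPKM of at least 1, with a median of 23.4, and 10 had a called gene TSS, against the same 60.1% and 51.7%. The p160 coactivators NCOA1, NCOA2 and NCOA3 were at 12.0, 14.6 and 28.3 FPKM, each between NR3C1 and ESR1. DDX5 was highest at 119 and KAT2B lowest at 6.57, and no TSS was called for NCOA1, KAT2B or CARM1. The 13 corepressors had a median of 21.7, all with an FPKM of at least 1 and 12 with a called gene TSS, against the same shares. NCOR1, which recruits histone deacetylases to nuclear receptors, was at 16.1. PHB2 was highest at 124, LCOR lowest at 3.78, and MTA1, at 22.7, had no called TSS.

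All 7 partner transcription factors had an FPKM of at least 1 and a called gene TSS, with a median of 76.3, where 60.1% and 51.7% of protein-coding genes did. GATA3, a luminal factor, was highest at 360 and SP3 lowest at 15.6, and FOXA1, a pioneer factor that opens chromatin for the estrogen receptor, was at 113. Among nuclear receptors related in sequence to the estrogen receptors but not bound by estrogen, ESRRA was at 30.9 FPKM with a called gene TSS. ESRRG at 0.0927 and ESRRB at 0.00445 had none, and ESRRG was at nearly the level of ESR2.

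**Figure D5:**
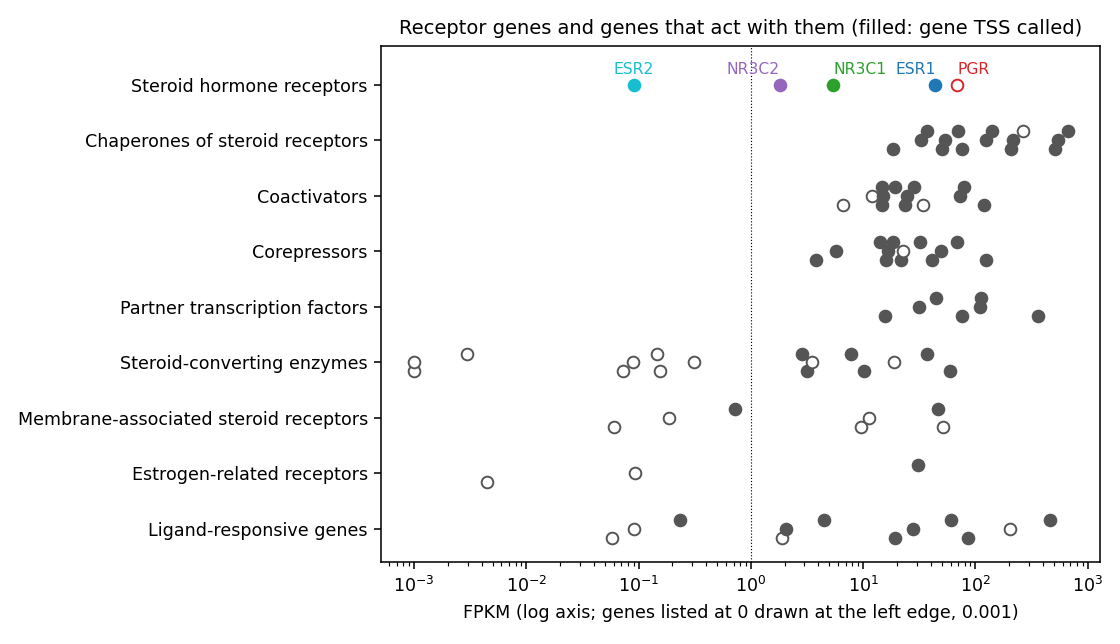
FPKM (log axis) of the receptor genes and of genes from 8 lists, filled where a gene TSS was called and open where none was, with genes listed at 0 drawn at the left edge and a dotted line at an FPKM of 1. All chaperones, coactivators, corepressors and partner factors lie right of the line, and PGR at 68.5 and PTGES3 at 267 are open symbols at high levels.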

How the data were processed

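Start-seq, which sequences the 5′ ends of short capped nuclear RNA, and RNA-seq were analysed. Each call deposited by the authors is 1 nucleotide of hg19, and its score is always 0. The calls followed trimming with cutadapt 1.2.1 and alignment with Bowtie 0.12.8, and were sought around RefSeq mRNA starts, with antisense calls sought around called gene TSSs. The read count of each call is not known here. The FPKM values were deposited for merged replicates, after alignment with TopHat2 2.0.4, removal of duplicates and Cufflinks 2.2.1 (versions per the submitters' processing notes). The table holds 0 columns of per-sample values. MNase-seq, FAIRE-seq and Start-seq replicate 2 were not used here.

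Symbols were matched to GENCODE genes lifted to GRCh37, whose chromosome sequences are those of hg19. Of them, 22337 matched directly, 2175 through RefSeq synonyms and 1659 not at all. Each gene TSS was given to the table gene with the nearest start on its strand within 1000 nts, which placed 10319 of 10391. CpG islands were longer than 200 nts, with GC content of 50% or more and CpG above 0.6 of its expected number, or, under stricter criteria, 500 nts, 55% and 0.65. Log2 levels used a pseudocount of 0.1 FPKM. Python 3.11.15, numpy 2.4.6, scipy 1.17.1, numba 0.67.0 and matplotlib 3.10.9 were used, and the island, assignment and pattern searches were tested on simulated data. No test was run, because 1 merged value or 1 library gives no replicate error.

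The receptor genes and gene lists were chosen with earlier results of these data known. Besides the receptor genes, the text names the highest and lowest gene of each list, genes at 0 or without a called TSS where these are 5 or fewer, main cochaperones and coregulators, and genes at the receptor loci. Any other gene was chosen after its values were seen. The value of 1 listed gene is not reported here. Likeness of pattern across samples could not be computed from 1 value per gene. The alternatives were other locus widths, joins, thresholds, windows and criteria.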

Additional observations from a re-analysis of the deposited data

How the results depend on the processing

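Of 78 recomputed values, 53 moved by less than the limits set and 25 moved further. Only the log2 levels could have changed sign, and none of them did. Each share of genes with a lower FPKM moved. Among genes above FPKM 0, it was 91.6% for PGR, 86.3% for ESR1, 49.9% for NR3C1, 37.6% for NR3C2 and 17.8% for ESR2. Among protein-coding genes with a called gene TSS, in the same order, it was 86.0%, 77.1%, 22.1%, 9.19% and 1.63%. Several log2 levels relative to the median of those genes also moved. Counting gene TSSs only on the strand of the receptor gene gave 7 at the receptor loci in place of 11. Without widening the loci, 8 in place of 11 gene TSSs lay in them. Receptor genes were then given 4 in place of 6, without the upstream ESR1 TSS and the NR3C2 TSS. Both changes counted as within the limits set. The share of genes no higher than ESR2 with a called TSS was 5.59% when genes at 0 were left out and 1.77% over all matched genes, in place of 2.85%. The shares at the levels of ESR2 and PGR were added after the data were seen. GC content at the upstream ESR1 TSS was 35.6% over 500 nts in place of 49%. With a window from 250 nts upstream to position +50, a GC box was found at 5 of 6 receptor TSSs in place of 3. In that window, 72.4% of all gene TSSs held it. The estrogen response half-site was found at 2 in place of 1 around annotated starts, compared with 14.5% of the annotated starts nearest to gene TSSs. With a threshold of FPKM 5 in place of 1, 5 in place of 8 steroid-converting enzymes and 3 in place of 4 receptor genes passed. The change for receptor genes counted as within the limits set. No paired analysis was possible because the replicates were merged before deposit and the TSS calls come from 1 library, and for the same reason no replicate could be left out. The planned comparison of protein identity between the receptors was not run, as no protein table was used here.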

Other observations

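Genes that activated steroid receptors are known to induce were read in the same cells, which had been kept in stripped serum. Of 12 such genes, 9 had an FPKM of at least 1, compared with 46.9% of all genes and 60.1% of protein-coding genes. Of the same 12, 8 had a called gene TSS, compared with 51.7% of protein-coding genes. XBP1, a secretory stress factor and estrogen target, was highest at 461 FPKM and had a called gene TSS. Calls were also made for GREB1 at 27.7 and IGFBP4 at 86.3 FPKM. CTSD, another estrogen target, was at 204 FPKM without a called gene TSS. TFF1 at 1.90 and PDZK1 at 0.0907, both classical estrogen targets, also had no called TSS. ZBTB16, a glucocorticoid and progestin target, was lowest at 0.0578 and had none. SGK1, a kinase induced by corticosteroids, had 2 called gene TSSs at an FPKM of 0.233. It was chosen after its values were seen, as a low gene with calls like ESR2.

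Among steroid-converting enzymes, an FPKM of at least 1 was found for 8 of 16, near the 46.9% of all genes and under the 60.1% of protein-coding genes. A gene TSS was called for 6, where 51.7% of protein-coding genes had a call. HSD17B4, a peroxisomal enzyme that also oxidizes estradiol, was highest at 59.3. HSD11B1, which regenerates active glucocorticoid, and HSD3B1, which is needed for steroid synthesis, were listed at 0. CYP19A1, the aromatase that makes estrogens, was at 0.00294. HSD11B2, which inactivates glucocorticoid and so protects the mineralocorticoid receptor, was at 3.19 with a called gene TSS. It was named after its value was seen. Among membrane-associated steroid receptors, 4 of 7 had an FPKM of at least 1 and 2 had a called gene TSS, against 60.1% and 51.7% of protein-coding genes. PGRMC2 was highest at 51.2 and GPER1, a membrane estrogen receptor, lowest at 0.0603, and neither had a called TSS. PAQR5 at 0.188, PAQR6 at 9.65 and PAQR7 at 11.2 also had none.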
